A study of Mus musculus with 9 samples.

Results

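The circadian clock genes described here are 10 genes of the core feedback loop, taken by name: Arntl, Clock, Per1, Per2, Per3, Cry1, Cry2, Nr1d1, Nr1d2 and Dbp. All 10 were found among the 26214 genes of the deposited expression table. RNA was sequenced from progenitor cells of male C57Bl/6 J mice of 8 to 12 weeks, 1 day after an injection into the quadriceps muscle. ASCs (adipose stromal cells) came from the subcutaneous adipose tissue (ScAT) after NaCl (3 libraries), FAPs (fibro-adipogenic progenitors) from the quadriceps after NaCl (2 libraries), and injured FAPs from the quadriceps after glycerol, which damages myofibers (3 libraries). These cells were sorted with magnetic beads as CD31-/CD45-/Sca-1+ cells. The paper describes triplicates, made for each cell type from pooled cells of 3 animals, but the data used here hold 2 libraries of FAPs. Whether each library had its own pool is not clear from that wording. A library of CD31+CD45+ cells after glycerol had no replicate and entered no test. The labels name no engineered allele. The libraries held 24052508 to 27481573 reads on genes, and the CD31+CD45+ library 13091077. The levels below are normalized counts, which are reads divided by a size factor of the library.

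The clock is a feedback loop that runs in nearly every cell of the body, adipose and muscle progenitors included. ARNTL (also called BMAL1) and CLOCK form the activator that switches on the Per and Cry genes, and the PER and CRY proteins come back to the nucleus and hold that activator down. A second loop sets Arntl itself, which the REV-ERB receptors NR1D1 and NR1D2 repress and the ROR receptors activate. DBP carries the rhythm to output genes. The RNA of most of these genes rises and falls over the day, with Arntl high when Nr1d1 and Dbp are low. The time of day at which the tissues were collected is not given in the sources used here, so a difference in level between groups and a difference in collection time cannot be told apart.

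These proteins act through short DNA motifs, and the promoters of 9 of the 10 genes were searched for 4 of them, from 250 bases before to 50 after each start site in RefSeq (GRCm38.p6). Per2 was the other gene. The E-box CACGTG and its variant CACGTT (read as AACGTG on the other strand) are bound by ARNTL and CLOCK, TAGGTCA is the core of the element of the REV-ERB and ROR receptors, and TTATGTAA is the D-box of DBP. Both strands were searched, and CACGTG and CACGTT share their first 5 letters. Of 32851 mouse promoters, 7.15% held CACGTG, 4.68% CACGTT, 2.61% TAGGTCA and 0.938% TTATGTAA. A match describes these letters and is not a measured binding site. The 9 genes had 13 such promoters. These shares are for single promoters and single motifs, so they are no measure for a count of genes with any of the 4. Of the 9 genes, 6 held a match, and these stretches are shown because their genes carry most of the values below, with the motif in capitals, 5′ to 3′ on the strand of the gene. Arntl is at chr7:113207521-113207560 (plus strand), Nr1d1 at chr11:98775380-98775425 (minus), Cry1 at chr10:85185089-85185153 (minus), Cry2 at chr2:92434210-92434255 (minus), Per1 at chr11:69098763-69098808 (plus) and Per3 at chr4:151044796-151044890 (minus).
Arntl: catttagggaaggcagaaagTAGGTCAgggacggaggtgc
Nr1d1: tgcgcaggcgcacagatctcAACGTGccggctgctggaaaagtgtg
Cry1: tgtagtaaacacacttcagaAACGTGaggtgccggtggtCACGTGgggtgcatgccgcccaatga
Cry2: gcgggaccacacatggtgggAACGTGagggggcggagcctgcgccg
Per1: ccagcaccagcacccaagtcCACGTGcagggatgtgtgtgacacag
Per3: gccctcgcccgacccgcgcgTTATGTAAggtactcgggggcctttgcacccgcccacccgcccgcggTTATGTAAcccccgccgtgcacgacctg

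Cry2 and Nr1d2 were highest in ASCs, Nr1d1 and Per3 were highest in FAPs, and Arntl was lowest in injured FAPs. The calls of Per3 were lost without FAP replicate 2. Differences were tested with limma on log2(normalized count + 1), and p was adjusted by the Benjamini-Hochberg method over 13601 genes whose mean reached 10 across the 8 libraries of ASCs, FAPs and injured FAPs. Calling a gene took an adjusted p below 0.05 together with a log2 fold change of more than 0.58 in either direction. All 10 clock genes passed the filter, 7 were called in at least 1 of the 3 comparisons, and Clock, Per1 and Per2 were called in none.

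In ASCs against FAPs, 5 of the 10 clock genes were called, where 47.2% of all tested genes were. Higher in ASCs were 2 (23.4% of all genes) and lower were 3 (23.8%). In injured FAPs against FAPs, 3 were called against 52.6% of all genes, none higher (24.9%) and 3 lower (27.7%). In injured FAPs against ASCs, 3 were called against 50.8%, none higher (25.0%) and 3 lower (25.8%). Whether these counts differ from the shares of all genes was not tested. Leaving out 1 library at a time moved them to 4 to 6, 2 to 5 and 3 to 4 in this order, and in injured FAPs against FAPs the highest count came without FAP replicate 1. The log2 fold change was negative for 5, 9 and 6 of the 10 genes in this order, called or not. The median log2 fold change of the 10 genes was −0.02, −0.36 and −0.41 in the order above, beside 0.00, −0.05 and 0.02 over all tested genes. The comparisons share libraries and are not independent of each other.

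**Figure D1:**
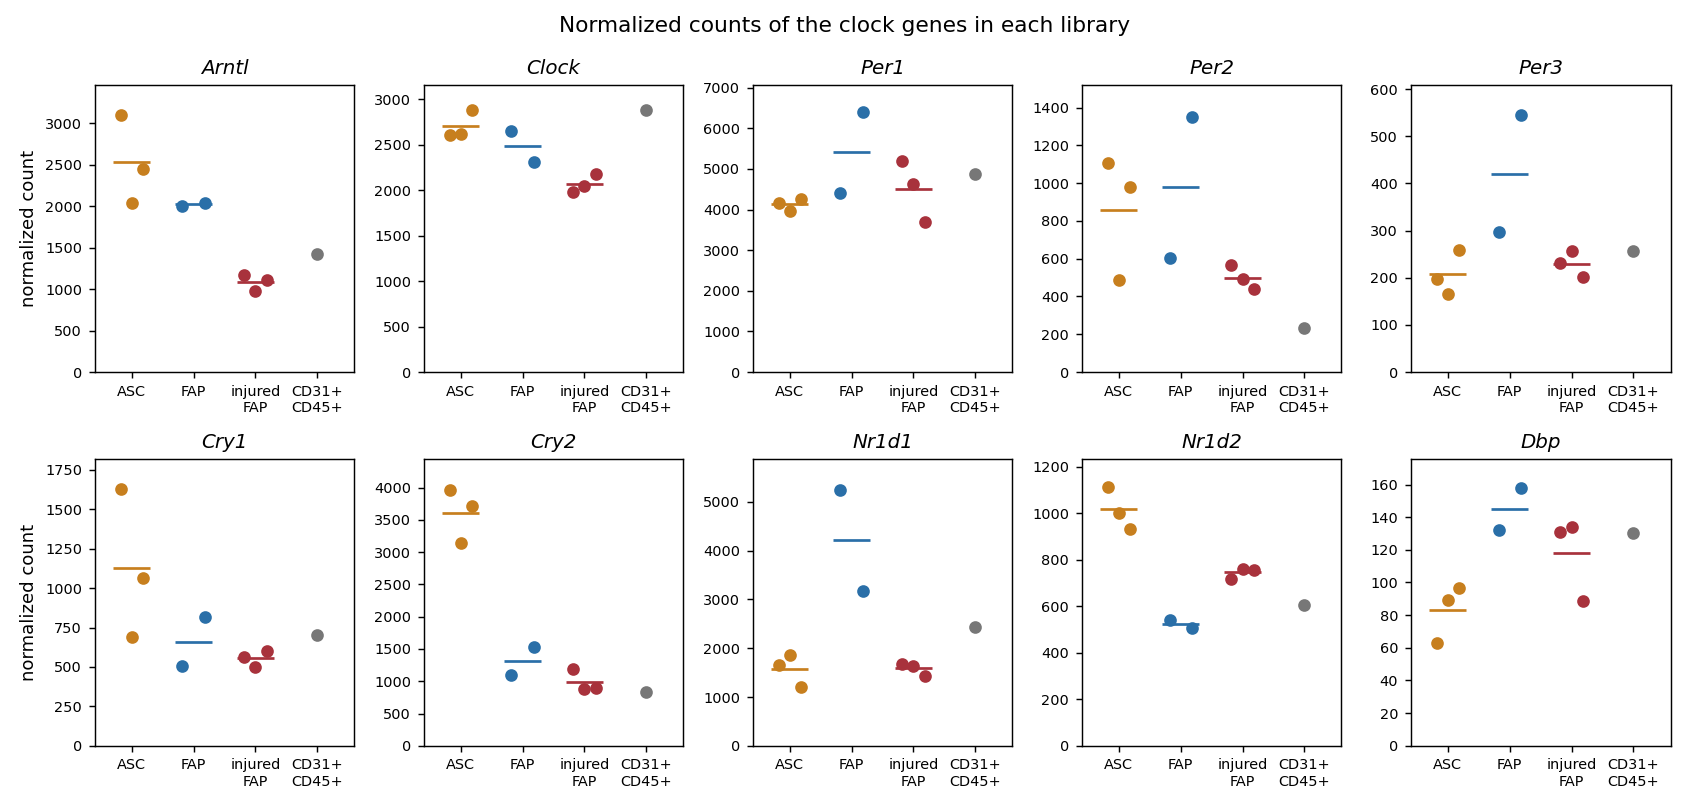
Normalized count (y axes from 0) of each clock gene in the 9 libraries by group, with a line at the mean of each group that has replicates. Arntl in injured FAPs lies between 982 and 1168, below every ASC and FAP library, and Nr1d1 in FAPs lies at 3179 and 5249, above every ASC and injured FAP library.

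**Figure D2:**
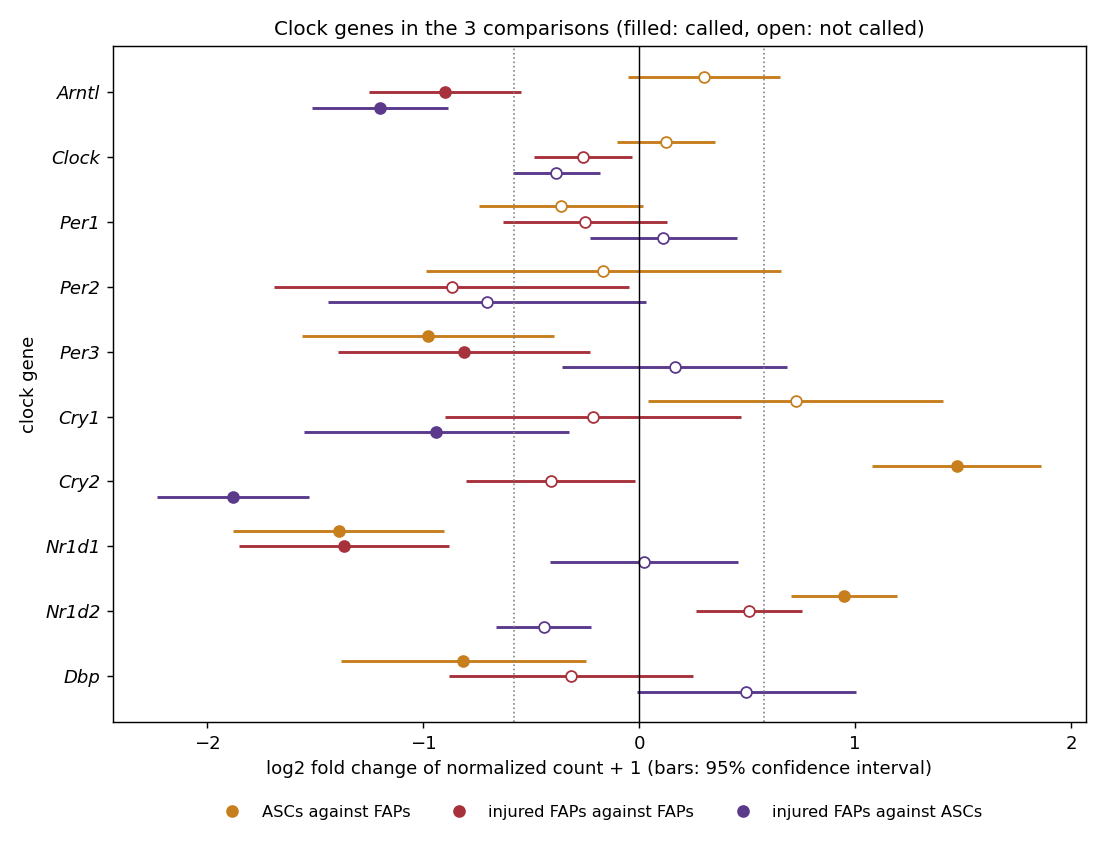
Log2 fold change of the 10 clock genes in the 3 comparisons (x axis, points), with the 95% confidence interval from limma (bars). Filled points were called, open points were not, and dotted lines mark a log2 fold change of 0.58 in either direction.

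Arntl, the activator whose loss stops the clock, had normalized counts of 3097, 2035 and 2443 in ASCs, 2004 and 2033 in FAPs and 1168, 982 and 1104 in injured FAPs. Every injured FAP library lay below every other library of the 3 groups, while the lowest ASC library was level with the FAPs. The level fell in injured FAPs, with a log2 fold change of −0.90 ± 0.16 (SE) against FAPs (limma, Benjamini-Hochberg adjusted p = 0.000599) and −1.20 ± 0.14 against ASCs (limma, adjusted p = 3.28e-05), which is 2.30-fold lower than in ASCs. Both calls held under all 19 alternative settings. ASCs and FAPs differed by 0.30 ± 0.16 and were not called (limma, adjusted p = 0.123), and the sign of that difference turned under quantile normalization (−0.05).

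Clock, its partner, changed less than Arntl. Its normalized counts were 2604, 2622 and 2876 in ASCs, 2653 and 2308 in FAPs and 1978, 2049 and 2181 in injured FAPs. The injured FAP libraries were again the lowest, but by less than the fold change threshold: −0.26 ± 0.10 against FAPs (limma, adjusted p = 0.0448) and −0.38 ± 0.09 against ASCs (limma, adjusted p = 0.00364). The first shrank to −0.16 without FAP replicate 1 (limma, adjusted p = 0.319), and the second to −0.17 under quantile normalization (limma, adjusted p = 0.122). In levels of Arntl and of Clock the order was thus ASCs, FAPs and injured FAPs, with ASCs and FAPs not differing beyond their spread, and for Clock the order of those neighbours turned under quantile normalization (−0.23) and a common 75th percentile (−0.09).

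Npas2, which can take the place of Clock, was highest in FAPs. Its normalized counts were 1172, 1313 and 1267 in ASCs, 2925 and 3053 in FAPs and 1129, 1245 and 1005 in injured FAPs. The FAP libraries lay above all others, and the levels of ASCs and injured FAPs overlapped. It was lower than in FAPs by a log2 fold change of −1.26 ± 0.11 in ASCs (limma, adjusted p = 7.29e-06) and −1.41 ± 0.11 in injured FAPs (limma, adjusted p = 3.12e-06). Arntl2, the paralogue of Arntl, was called in none of the comparisons, with 73.8 to 146.9 normalized counts in the 8 libraries.

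The Per genes encode the PERIOD proteins, the rhythmic partners in the repressor. Per2 had normalized counts of 1104, 486 and 979 in ASCs, 606 and 1351 in FAPs and 566, 489.8 and 438 in injured FAPs. The ASC and FAP groups each held a library near the injured FAPs and at least a library far above them, so the spread within the groups was as large as the distance between them. In injured FAPs Per2 was at −0.87 ± 0.37 against FAPs (limma, adjusted p = 0.0600), short of a call. It passed the threshold in 9 of 19 alternatives, among them edgeR (−0.93) and DESeq2 (−0.95), and stood at −1.45 without FAP replicate 1 and at −0.29 without FAP replicate 2. Between ASCs and FAPs (−0.16) its sign turned without ASC replicate 2 (0.20) and without FAP replicate 2 (0.41). Injured FAPs against ASCs (−0.70; limma, adjusted p = 0.0832) passed the threshold in 5 alternatives, with −1.07 without ASC replicate 2.

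Per3 had normalized counts of 196, 166 and 259 in ASCs, 297 and 545 in FAPs and 231, 257 and 201 in injured FAPs. Both FAP libraries lay above the rest, but FAP replicate 2 carried most of the difference. Per3 was lower in ASCs by −0.98 ± 0.26 (limma, adjusted p = 0.00846) and in injured FAPs by −0.81 ± 0.26 (limma, adjusted p = 0.0193), both against FAPs. Without FAP replicate 2 these were −0.54 (limma, adjusted p = 0.122) and −0.37 (limma, adjusted p = 0.258), and neither was called. Without FAP replicate 1 the second was −1.25. Its call was also lost without injured FAP replicate 3 (−0.72; limma, adjusted p = 0.0666).

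Per1, which also responds quickly to hormones and stress, had normalized counts of 4169, 3971 and 4261 in ASCs, 4404 and 6408 in FAPs and 5185, 4628 and 3704 in injured FAPs. The groups overlapped or nearly touched, and no comparison was called. Its log2 fold change in ASCs against FAPs was −0.36 ± 0.17 (limma, adjusted p = 0.0904), and it was called there under quantile normalization (−0.91) and without FAP replicate 1 (−0.63), while without FAP replicate 2 it was −0.09. In injured FAPs against FAPs (−0.25) the sign turned without FAP replicate 2 (0.02). The order of its group means was FAPs, injured FAPs and ASCs, and no neighbours in that order were told apart.

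The Cry genes encode the cryptochromes, which bind the activator together with PER and block it. Cry2 (chr2:92403646-92434043 in GENCODE M21, minus strand) had normalized counts of 3963, 3142 and 3722 in ASCs, 1097 and 1528 in FAPs and 1183, 879.6 and 889 in injured FAPs. All ASC libraries reached at least 3142, more than double the highest FAP or injured FAP library. The log2 fold change was 1.47 ± 0.18 in ASCs against FAPs (limma, adjusted p = 5.68e-05), 2.77-fold higher, and −1.88 ± 0.16 in injured FAPs against ASCs (limma, adjusted p = 2.97e-06), 3.68-fold lower. Both calls held under all 19 alternatives. The FAP groups overlapped in Cry2 (−0.41 ± 0.18; limma, adjusted p = 0.0622), and the difference was called without FAP replicate 1 (−0.65) and shrank to −0.17 without FAP replicate 2. Cry2 shares 295 exon bases (4.67%) with D930015M05Rik on the opposite strand, and reads of that stretch cannot be told apart.

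Cry1 had normalized counts of 1629.6, 691 and 1062 in ASCs, 504 and 818 in FAPs and 562, 499 and 604 in injured FAPs. The ASC libraries spread over 2.36-fold, and the lowest of them fell between the FAP libraries. Cry1 was called only in injured FAPs against ASCs, at −0.94 ± 0.28 (limma, adjusted p = 0.0119). Against FAPs the ASCs stood at 0.72 ± 0.31 (limma, adjusted p = 0.0636). That difference was called without ASC replicate 2 (1.03), without FAP replicate 2 (1.07) and by DESeq2 (0.78), and it shrank to 0.38 without FAP replicate 1. Injured FAPs and FAPs were not told apart (−0.21), and the sign turned without FAP replicate 2 (0.13).

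The REV-ERB receptors NR1D1 and NR1D2 repress Arntl and largely stand in for each other, yet FAPs were highest in one RNA and lowest in the other. Nr1d1 (chr11:98767932-98775333, minus strand) had normalized counts of 1663, 1869.9 and 1211 in ASCs, 5249 and 3179 in FAPs and 1676, 1643 and 1440.0 in injured FAPs. The FAP libraries lay above all others, and the injured FAP libraries lay within the range of the ASC libraries. The level was lower than in FAPs by −1.39 ± 0.22 in ASCs (limma, adjusted p = 0.000352), 2.62-fold, and by −1.37 ± 0.22 in injured FAPs (limma, adjusted p = 0.000329), 2.58-fold. Both calls held under all 19 alternatives. Injured FAPs and ASCs were at 0.02 ± 0.20 (95% confidence interval −0.41 to 0.46), a difference whose sign turned without ASC replicate 3 (−0.16) or without injured FAP replicate 1 (−0.02) or 2 (−0.002).

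Nr1d2 (chr14:18204054-18239127, minus strand) had normalized counts of 1113, 1002 and 934 in ASCs, 542 and 507 in FAPs and 719, 761 and 758 in injured FAPs. Here the FAPs were lowest, the injured FAPs in between and the ASCs highest, with no overlap between any of the groups. ASCs were higher than FAPs by 0.95 ± 0.11 (limma, adjusted p = 4.56e-05), 1.93-fold. Injured FAPs differed from FAPs by 0.51 ± 0.11 (limma, adjusted p = 0.00227) and from ASCs by −0.44 ± 0.10 (limma, adjusted p = 0.00251), both under the fold change threshold.

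Within a library, the log2 difference between Nr1d1 and Nr1d2 sets the paralogues side by side and does not depend on the size factor. It was 0.58, 0.90 and 0.37 in ASCs, 3.27 and 2.65 in FAPs, 1.22, 1.11 and 0.92 in injured FAPs and 2.003 in the CD31+CD45+ library. The FAP libraries thus stood apart from the ASC and injured FAP libraries, by more than the spread within any group. This difference of the paralogues was not tested. The Nr1d1 gene overlaps Thra on the opposite strand over 263 exon bases (8.55% of its exon length), and the strand setting of the counting is not given in the sources used here, so reads of that stretch cannot be told apart. The levels of Thra were 4707, 4843 and 5476 in ASCs, 5945 and 5762 in FAPs and 1749.7, 1618 and 1698 in injured FAPs. The injured FAP libraries lay below all ASC and FAP libraries.

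Dbp, a transcription factor that the activator drives through E-boxes, was low in every library. Its normalized counts were 63.2, 89.5 and 96.7 in ASCs, 132 and 158 in FAPs and 131, 134 and 88.5 in injured FAPs. The ASC libraries lay below both FAP libraries, and injured FAP replicate 3 fell among the ASCs. Dbp was lower in ASCs than in FAPs by −0.81 ± 0.25 (limma, adjusted p = 0.0182). The call was lost without FAP replicate 2 (−0.69; limma, adjusted p = 0.123) and under quantile normalization (−0.41; limma, adjusted p = 0.156). In injured FAPs against ASCs (0.50; limma, adjusted p = 0.0765) it was called without injured FAP replicate 3 (0.69), under a common 75th percentile (0.61) and by edgeR (0.59), and it shrank to 0.31 without ASC replicate 1 and to 0.28 under quantile normalization. Dbp shares 539 exon bases (18.01%) with Sphk2 on the opposite strand, which was at 833 and 855 in FAPs and between 427 and 520.2 in all ASC and injured FAP libraries.

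Since Dbp and Arntl peak at opposite times, the log2 difference of Dbp and Arntl within a library sets them side by side. It was −5.59, −4.49 and −4.65 in ASCs, −3.91 and −3.68 in FAPs, −3.15, −2.86 and −3.63 in injured FAPs and −3.44 in the CD31+CD45+ library. ASCs had the lowest values and did not overlap with FAPs or injured FAPs, and Arntl exceeded Dbp in all 9 libraries. The means were −4.91 ± 0.60 (SD, n = 3), −3.79 ± 0.17 (SD, n = 2) and −3.21 ± 0.39 (SD, n = 3). The same difference with Nr1d1 in the place of Dbp ordered the groups otherwise, with FAPs highest (mean 1.02 ± 0.53, SD, n = 2), then injured FAPs (0.55 ± 0.18, SD, n = 3) and ASCs lowest (−0.68 ± 0.48, SD, n = 3), and the ranges of FAPs and injured FAPs overlapped. With no series of hours, these differences do not give a time.

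To compare genes with each other, normalized counts were divided by the exon length of the gene in kilobases. Per1 stood first in ASCs (734.1 ± 26.3 per kb, SD, n = 3) and in injured FAPs (800.1 ± 132.9, SD, n = 3), and Nr1d1 had the highest mean in FAPs (1369 ± 476, SD, n = 2). That place rested on FAP replicate 1 (1706 against 782 for Per1), and in FAP replicate 2 Per1 (1138) lay above Nr1d1 (1033). By the group means, Cry2 was second in ASCs (571 ± 66.8) and at place 4 in FAPs and injured FAPs (208 ± 48.2 and 156 ± 27.3). Its place differed between libraries. In ASC replicate 2 Nr1d1 (608) lay above Cry2 (497). Clock (193) lay above Cry2 (174) in FAP replicate 1, and Cry1 (245) above Cry2 (242) in FAP replicate 2. Cry1 also lay above Cry2 in injured FAP replicates 2 (149 and 139) and 3 (181 and 141), but below it in replicate 1 (168 and 187). Per3 and Dbp were last in all 3 groups, with Per3 at 21.6 ± 4.89, 43.8 ± 18.3 and 23.9 ± 2.91 per kb in ASCs, FAPs and injured FAPs. Dbp was at 27.8 ± 5.88, 48.5 ± 6.11 and 39.4 ± 8.52 per kb, and the ranges of Per3 and Dbp overlapped in ASCs and in FAPs.

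The clock genes differed from each other in how far replicates lay apart. The pooled SD within groups, on the log2 scale, was 0.56 for Per2, 0.46 for Cry1, 0.36 for Per3 and 0.32 for Nr1d1, beside a median of 0.19 over the 13601 tested genes. Among the 4525 tested genes within 2-fold of the mean level of Per2, its SD was at the 99.0th percentile, and that of Cry1 was at the 98.1st of 4488. The activator Clock (0.09) and the REV-ERB gene Nr1d2 (0.09) were among the steadier genes, at the 24.8th and 17.0th percentile of genes of like level.

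The libraries that were low in one gene of the PER and CRY arm were mostly low in the others. ASC replicate 2 lay below its group mean by −0.73 in Per2, −0.62 in Cry1, −0.29 in Per3 and −0.19 in Cry2, and above it by 0.27 in Nr1d1. FAP replicate 1 lay below its group mean by −0.58 in Per2, −0.44 in Per3, −0.35 in Cry1, −0.27 in Per1 and −0.24 in Cry2, and above it by 0.36 in Nr1d1. In injured FAPs the deviations stayed between −0.39 and 0.28. With 2 or 3 libraries a group this is a description of these libraries, and whether the animals of a pool were collected at different times was not tested.

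**Figure D3:**
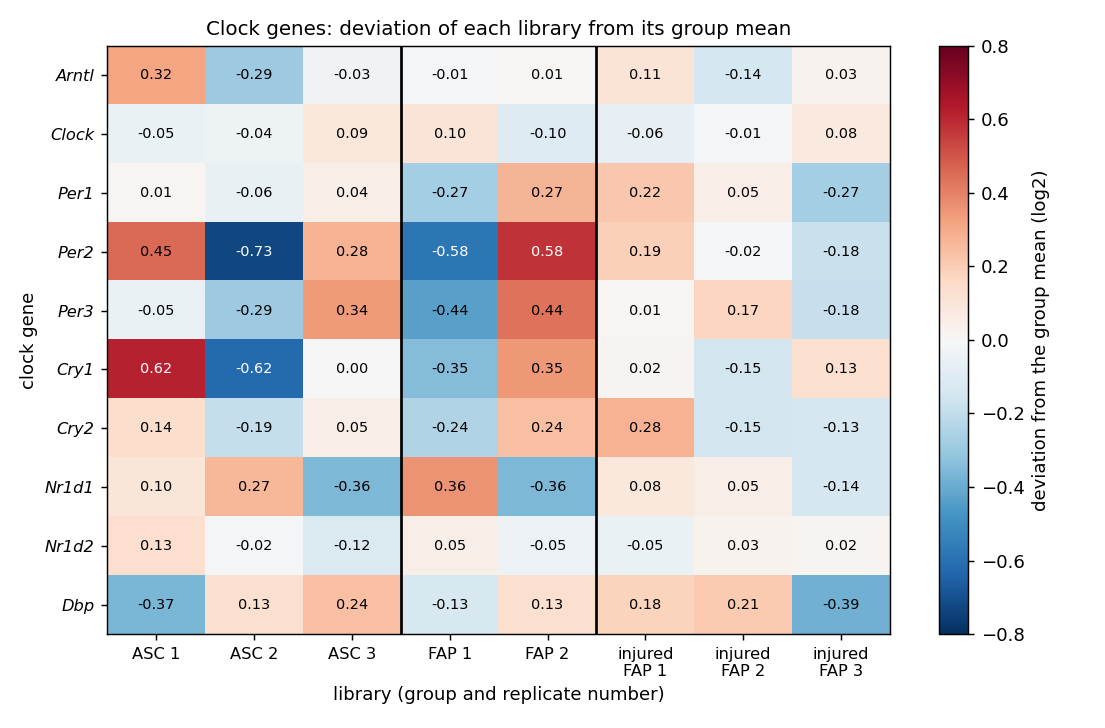
Deviation of each library from the mean of its group (columns, log2 scale) for the 10 clock genes (rows), where red is above and blue below the group mean. ASC replicate 2 and FAP replicate 1 are blue in Per2, Per3, Cry1 and Cry2 and red in Nr1d1.

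The list of other genes of the clock and its output held 24 genes, which all passed the filter. In ASCs against FAPs, 9 were higher and 6 lower, in injured FAPs against FAPs 4 were higher and 5 lower, and in injured FAPs against ASCs 6 were higher and 7 lower. The median log2 fold change of the 24 was 0.06, 0.16 and 0.02. In all, 15, 9 and 13 of the 24 were called in this order, beside 47.2%, 52.6% and 50.8% of all genes, and the difference from those shares was not tested. Of the genes not described below, Tspan4 was higher in injured FAPs than in FAPs (2.32; limma, adjusted p = 3.28e-06) and in ASCs (1.65; limma, adjusted p = 1.05e-05). Its call as higher in ASCs than in FAPs (0.67) was lost in 4 of 19 alternatives. Lonrf3 was higher in ASCs than in FAPs (1.90; limma, adjusted p = 0.000598), and Nfil3 was called in no comparison.

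The ROR receptors activate Arntl at the element that the REV-ERBs occupy. Rora had normalized counts of 4397, 3425 and 4562 in ASCs, 2524 and 2382 in FAPs and 1570.0, 1341 and 1596 in injured FAPs. Among the 3 groups the injured FAP libraries were the lowest and the ASC libraries the highest. It fell by 0.71 on the log2 scale in injured FAPs against FAPs (limma, adjusted p = 0.00105). Its difference between ASCs and FAPs (0.74; limma, adjusted p = 0.000958) fell below the fold change threshold under quantile normalization (0.32) and under a common 75th percentile (0.53). Rorb was at 229.9 to 292.5 in ASCs and 19.0 to 35.8 in the FAP and injured FAP libraries, with a log2 fold change of 3.25 in ASCs against FAPs (limma, adjusted p = 8.43e-06).

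The E-box repressors Bhlhe41 and Cipc were, among the 3 groups, highest in FAPs. Bhlhe41 had normalized counts of 368, 178 and 235 in ASCs, 754 and 922 in FAPs and 435, 456 and 437 in injured FAPs. It was lower than in FAPs by −1.74 in ASCs (limma, adjusted p = 0.000174) and by −0.91 in injured FAPs (limma, adjusted p = 0.00799), and the latter call was lost without FAP replicate 2 (−0.77; limma, adjusted p = 0.0761). It was also higher in injured FAPs than in ASCs (0.83; limma, adjusted p = 0.00695). Cipc, an inhibitor of CLOCK, was lower by −1.39 (limma, adjusted p = 4.47e-05) and −1.18 (limma, adjusted p = 0.000108). Bhlhe40 was abundant in all groups (13389 to 20134) and called in none of the comparisons. Ciart was at 162, 29.4 and 76.6 in ASCs and 8.56 and 34.8 in FAPs, so its call in ASCs against FAPs (1.98; limma, adjusted p = 0.0301) rested on few reads and was lost in 6 of 18 alternatives. It was 1.02 without FAP replicate 1 (limma, adjusted p = 0.290) and 2.93 without FAP replicate 2.

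Kinases and ubiquitin ligases set the lifetime of PER and CRY. Csnk1d, a kinase of PER, had normalized counts of 8971, 5707 and 6449 in ASCs, 2344 and 2669 in FAPs and 3284, 3157 and 3046 in injured FAPs. All ASC libraries exceeded all FAP and injured FAP libraries, with a log2 fold change of 1.47 in ASCs against FAPs (limma, adjusted p = 3.79e-05). Its paralogue Csnk1e, the kinase gene Gsk3b and Fbxl21 were called in no comparison. Fbxw11, a ligase component for PER, was higher in ASCs than in FAPs by 1.09 (limma, adjusted p = 1.17e-05), while Btrc, its paralogue, was called only as lower in injured FAPs against FAPs (−0.63; limma, adjusted p = 0.00566).

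Output genes are those that the loop drives, and whether their levels here followed it was not tested. Noct, a rhythmic phosphatase known from fat metabolism, had normalized counts of 7169, 5352 and 4726 in ASCs, 525 and 553 in FAPs and 3353, 2762 and 3022 in injured FAPs. The groups did not overlap, and FAPs stood lowest, with log2 fold changes of 3.39 in ASCs (limma, adjusted p = 1.36e-07) and 2.49 in injured FAPs (limma, adjusted p = 9.86e-07). Usp2, a deubiquitinase, was at 7004, 3713 and 3918 in ASCs and between 919 and 1389.6 in the FAP and injured FAP libraries, 2.24 higher on the log2 scale in ASCs than in FAPs (limma, adjusted p = 2.46e-05). The D-box activators Tef and Hlf were lower in ASCs than in FAPs, like Dbp, by −0.85 (limma, adjusted p = 0.00308) and −1.40 (limma, adjusted p = 0.00578), and the call of Hlf was lost without FAP replicate 2 (−1.12; limma, adjusted p = 0.0673).

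Some of the listed genes also act in cell division. Wee1, a kinase that holds cells before mitosis, had normalized counts of 292.5, 309 and 333 in ASCs, 275 and 409 in FAPs and 956, 973 and 823 in injured FAPs. Tipin, a partner of Timeless at the replication fork, was at 627 to 815 in injured FAPs and at 147.5 to 212 in the ASC and FAP libraries. Both rose in injured FAPs against FAPs, by 1.44 (limma, adjusted p = 3.92e-05) and 2.03 (limma, adjusted p = 8.24e-06), while Timeless was not called in that comparison (0.50; limma, adjusted p = 0.210). Timeless was lowest in ASCs, at −2.21 against FAPs (limma, adjusted p = 0.000285), with injured FAPs 2.71 above ASCs (limma, adjusted p = 2.2e-05). All 8 genes of the cell division list rose in injured FAPs against FAPs (24.9% of all genes did), and their summed level was 24209 to 25756 in injured FAPs, with Mki67 the most abundant, and 392 to 1041 in ASCs and FAPs. The part of cell division in the levels of the clock genes was not tested.

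**Figure D4:**
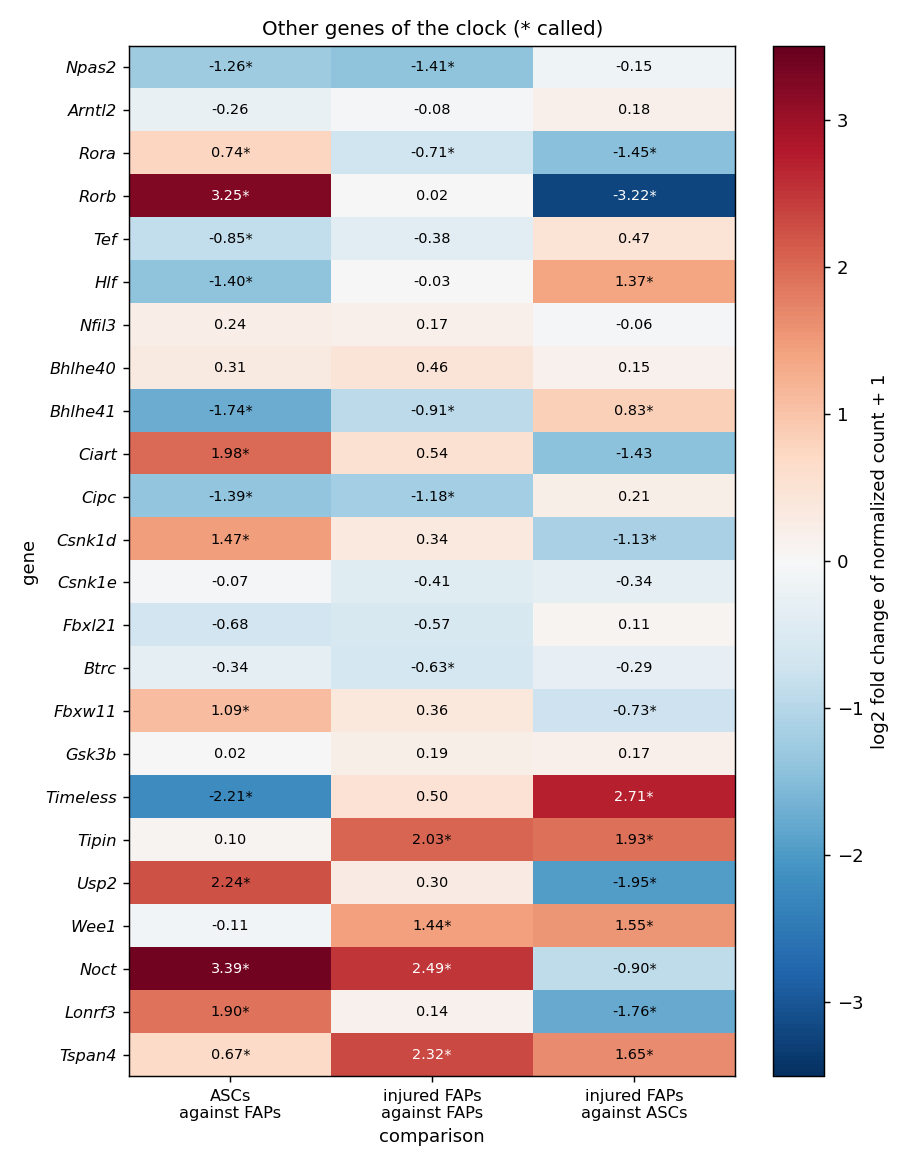
Log2 fold change (colour and number) of the 24 other genes of the clock (rows) in the 3 comparisons (columns), with a star on those called. Noct reads 3.39 and 2.49 in the comparisons against FAPs, and Wee1 and Tipin are red in both comparisons of injured FAPs.

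Hormones and handling also reach the clock, so glucocorticoid targets and immediate early genes are given beside it. Tsc22d3, a target of the glucocorticoid receptor, had normalized counts of 1412, 1305 and 1542 in ASCs, 5495 and 5112 in FAPs and 952, 749 and 834 in injured FAPs. Like Nr1d1 it was highest in both FAP libraries, and it was lower by −1.90 in ASCs (limma, adjusted p = 9.24e-07) and −2.66 in injured FAPs (limma, adjusted p = 2.50e-07). Of the 8 targets, 5 were higher (23.4% of all genes) and 1 lower (23.8%) in ASCs against FAPs. In injured FAPs, 1 was higher (24.9%) and 4 lower (27.7%) against FAPs, and none were higher (25.0%) and 6 lower (25.8%) against ASCs. The medians of their log2 fold changes were 0.86, −0.77 and −1.30. Errfi1 was at 64930 to 85054 in ASCs and 10429 to 14954 in the FAP and injured FAP libraries.

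Of the 9 immediate early genes, which respond within minutes to stress and to tissue dissociation, 7 fell in injured FAPs against FAPs (27.7% of all genes) and none rose (24.9%). Against ASCs, too, 7 fell in injured FAPs (25.8%) and none rose (25.0%). Jun was among these 7 (−0.62; limma, adjusted p = 0.0470), and its call was lost in 11 of 19 alternatives and its sign turned in 1 more. The call went, among others, when any library but ASC replicate 1 was left out (from −0.42 to −0.66). In ASCs against FAPs 3 were higher (23.4%) and 3 lower (23.8%), and only 1 lower without ASC replicate 1. Quantile normalization changed these counts to 4 lower and none higher, to 4 lower and 2 higher, and to 4 lower and 1 higher in the order of this paragraph. In FAPs Egr1 had normalized counts of 161561 and 163772, in ASCs 111363 to 159995 and in injured FAPs 25087 to 35053. The 9 genes together summed to 237890 to 287773 in injured FAPs, below the 549934 and 617071 of FAPs and the 681211 to 896151 of ASCs, with Fosb most abundant in ASCs, Egr1 in FAPs and Zfp36 in injured FAPs. The part of glucocorticoids or of handling in the levels of the clock genes was not tested. The paper digested adipose tissue and muscle with different enzymes, so handling and tissue cannot be told apart in the comparisons with ASCs.

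The sorted cells were checked against cell type markers. All 6 markers of FAPs and ASCs, among them Pdgfra and Ly6a (which encodes Sca-1, used in the sort), were above 0 in the 8 libraries. They were also above 0 in the CD31+CD45+ library, so this does not by itself set the sorted cells apart. There Ly6a (17672) was above both FAP libraries and Cd34 (17085) above all injured FAP libraries. Pdgfra (119), Thy1 (1566), Dpt (206) and Pdgfrb (4969) were below all 8 libraries. The levels of the 6 differed between groups: 4 were higher (23.4% of all genes) and 1 lower (23.8%) in ASCs against FAPs. In injured FAPs, 1 was higher (24.9%) and 2 (Cd34 and Dpt) lower (27.7%) against FAPs, and 1 higher (25.0%) and 4 lower (25.8%) against ASCs. Under quantile normalization 2 were higher and 2 lower in each of the comparisons with ASCs, and without FAP replicate 2 none were higher in injured FAPs against FAPs. The 6 smooth muscle and pericyte genes summed to 1001 to 1423 in ASCs (Notch3 most abundant), 21036 and 18518 in FAPs (Rgs5 and Acta2) and 9117 to 9595 in injured FAPs (Cspg4). In all 3 groups every one of the 6 was above 0. Their part in the levels of the clock genes was not tested, and a change in the mix of cells and a change in RNA per cell cannot be told apart in bulk libraries.

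Genes of other cell types were summed for each library. In FAPs the 10 leukocyte genes summed to 265 and 497, in ASCs to 377 to 476 and in injured FAPs to 536 to 2977, with Cd68 or Csf1r most abundant in ASCs and Cd68 in FAPs, where 7 of the 10 were at 0 in both libraries, Ptprc and Lyz2 among them. Injured FAP replicate 2 was the highest, with Lyz2 (725), Cd74 (575) and Cd68 (553) the most abundant there. Endothelial genes (10) had sums of 1827 to 2269 in injured FAPs, 6726 and 4573 in FAPs and 5908 to 7717 in ASCs. Tek was the most abundant in ASCs and FAPs and Cdh5 in injured FAPs. Emcn, Cldn5, Vwf and Plvap were at 0 in both FAP libraries. In ASCs Tek alone was at 4841 to 6700. Of the 9 tested endothelial genes, 4 were higher (23.4% of all genes) in ASCs against FAPs. These were Tek and, from 0 in FAPs, Emcn, Cldn5 and Plvap. Another 4 (Cdh5, Kdr, Flt1 and Tie1) were lower in ASCs (23.8%). Muscle fibre genes (8) had sums of 861 and 1032 in FAPs, 248 to 322 in injured FAPs and 111 to 158 in ASCs, with Acta1 or Tnnt3 most abundant, Myh1 and Pvalb at 0 in ASC replicate 1 and Myh4 in ASC replicate 3. The sums of the 5 satellite cell genes were at most 10.2 in ASCs, where Pax7 was at 0 in all 3, and 212 to 402 in FAPs and injured FAPs, mostly Chodl. The 4 Schwann genes summed to 225 to 1049.9 over the 8 libraries (Mbp most abundant, none at 0), and the 5 adipocyte genes to 109 to 121 in ASCs and 1.53 to 21.6 in FAPs and injured FAPs (Plin1 or Adipoq most abundant, Retn at 0 in all 5 of these libraries).

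For each clock gene, the gene with the most similar pattern was named by the Pearson r of log2(normalized count + 1) over the 8 libraries, among 10561 genes outside the clock genes listed here whose mean reached 100. With 8 libraries in 3 groups, a high r says mostly that the group means are alike. For Arntl it was Tbx18 (r = 0.995), for Cry2 Igsf1 (r = 0.994), for Nr1d1 Zfp790 (r = 0.980), for Nr1d2 Ccl8 (r = 0.997) and for Dbp Arid1a (r = 0.984). For Clock it was Cd99l2 (r = 0.984), for Per1 Armc5 (r = 0.959), for Per2 Fuca2 (r = 0.955), for Per3 Smoc1 (r = 0.989) and for Cry1 Fam167a (r = 0.975).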

How the data were processed

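RNA-seq libraries of sorted ASCs, FAPs, injured FAPs and CD31+CD45+ cells were grouped by their labels. The authors filtered the reads, checked them with FastQC, aligned them to mm10 with HISAT2, assigned them to genes with featureCounts (Subread) and ran DESeq2. The unit of the values the authors deposited is a signal, named normalized counts, and how it was scaled, the strand setting and the treatment of reads with several matches are not given in the sources used here. In each library 100% of the values above 0 came out as whole reads (within 0.01 of a read) divided by a size factor of 0.637 to 1.31. Of 26214 genes, 6684 were at 0 in every library and 24918 matched GENCODE M21 (GRCm38), which gave coordinates and exon lengths.

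From these values log2(value + 1) was computed. A limma model (3.58.1, under R 4.3.3) had a variance trend and 1 mean per group over 8 libraries and 13601 genes with a mean of at least 10, and p was adjusted by the Benjamini-Hochberg method. The added 1 shrinks the fold change of genes with few reads. The authors state that injury experiments were repeated on at least 3 days with animals of several litters. Which libraries shared a day or a pool is not clear from the sources used here. The p-values thus measure the spread between these libraries, which need not be independent pools of animals. A value of 3 reads was 2.29 to 4.71 depending on the library, which limits the precision of low genes and covers counting error only.

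The recovered reads also went through edgeR 4.0.16, which called 6450, 7303 and 7000 genes in the order of comparisons used in the text, and through DESeq2 1.42.0, which called 6412, 7227 and 6865. The other alternatives were the pseudocount, the filter, the scaling, the unadjusted p, a fit of only the compared groups, a replicate block and each library left out. The methods were tested on simulated data. In these, genes changed in injured FAPs only, and far fewer changed than were called here. That test does not cover the scaling when so many genes differ. Genes named are the 10 clock genes, lists of other clock genes, glucocorticoid targets, immediate early genes and cell type markers, and for each clock gene the gene of most similar pattern. Some genes of the lists as first drawn up are not reported here. The members and lists were chosen with earlier results of these data known.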

Additional observations from a re-analysis of the deposited data

Results flagged for a closer look

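The CD31+CD45+ library entered no comparison, and 5 of 34 genes of the clock were higher there than in every library of NaCl-injected mice, as were 34.7% of the 13601 tested genes. Clock had a normalized count of 2878.3, which is level with the highest of those libraries (2876 in ASC replicate 3). Timeless was at 2526.8 against at most 486. Csnk1e was at 3229.9 (highest other 2527), Cipc at 822.4 (683) and Wee1 at 472.4 (409). Against injured FAPs, which also came from glycerol-injected mice, Wee1 was lower (823 to 973 there) and the other 4 were higher. There is no replicate of this library, it held 13091077 reads, and the differences were not tested.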

How the results depend on the processing

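Each log2 fold change of the 10 clock genes in the 3 comparisons (30 results) was recomputed under 19 alternatives, and 14 of the 30 kept their direction and their side of the threshold under all of them. These include the calls of Arntl, Cry2, Nr1d1 and Nr1d2 and the call of Cry1. Of all these values, 530 kept both, 5 lost the call, 24 gained it and 11 changed sign. None of the changes of sign was in a called result of a clock gene. In ASCs against FAPs, quantile normalization turned Arntl to −0.045 and Clock to −0.23, the common 75th percentile turned Clock to −0.085, and Per2 was at 0.20 without ASC replicate 2, 0.41 without FAP replicate 2 and −0.743 without FAP replicate 1. In injured FAPs against FAPs, Per1 was at 0.019 and Cry1 at 0.13 without FAP replicate 2, and at −0.522 and −0.562 without FAP replicate 1. In injured FAPs against ASCs, Per3 was at −0.032 under quantile normalization and Nr1d1 at 0.157 without ASC replicate 2, −0.16 without ASC replicate 3, −0.017 without injured FAP replicate 1 and −0.002 without injured FAP replicate 2. Jun, called there as lower, was at 0.47 under quantile normalization and lost its call in 11 other alternatives. There, quantile normalization left 4 immediate early genes lower and made 2 higher. The cause was not tested. Without a FAP library, the lone FAP library was assumed to vary like the other groups.

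The count of clock genes called ranged from 4 to 6 in ASCs against FAPs, from 2 to 5 in injured FAPs against FAPs and from 3 to 4 in injured FAPs against ASCs when each library was left out. The counts of all genes called stayed within 1.5 times under every alternative. Scaling to a common 75th percentile moved the median of all genes by −0.21 in ASCs against FAPs and by 0.11 in injured FAPs against ASCs, and the share of calls that were higher in ASCs than in FAPs from 49.6% to 37.2%.

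Libraries with the same replicate number did not deviate together (Pearson r across genes from −0.05 to 0.04), so the numbers were not taken to pair the samples. With the replicate block, 6287, 7046 and 6861 genes were called in the 3 comparisons, and 5, 3 and 3 clock genes, and no call of a clock gene changed.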
